A study of Mus musculus with 3 samples.

Results

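The genes described here encode the alpha chains of the collagens, the proteins whose chains wind in groups into the triple helices of the extracellular matrix. They are 39 genes, chosen as a list of symbols by their family and not by a cut on measured values, though with earlier results of these data known, among 19938 genes with a value. Each of the 39 was read by 1 probe set, and none of the 39 shared its probe set with another gene. By class they are 11 fibrillar chains, 6 basement membrane chains, 3 type VI chains, 8 FACIT chains (fibril-associated collagens with interrupted triple helices) and 11 others.

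RNA came from 3 cultures of mouse forestomach fibroblasts positive for the fibroblast marker FSP1 (gene S100a4), described as cell lines, with 1 Affymetrix Mouse Gene 1.0 ST array for each. The first was wild type (labelled wt), from normal forestomach. The second was a conditional knockout of Tgfbr2 (labelled TGFBR2cKO), one of the receptors that TGF-beta needs to signal, and was taken from a forestomach tumour, a squamous cell carcinoma. The third was a conditional knockout of both Tgfbr2 and Smad4 (labelled TGFBR2/SMAD4 cKO), Smad4 being the SMAD protein that TGF-beta and BMP signals share, and came from normal forestomach. All 3 were grown in medium with 10% serum to subconfluency and used at passages 4 to 6. Their mice were male or female and of mixed C57BL6 and BALBc background, with no strain or sex given for a line, and what drove the recombination is not given in the sources used here. They are called wild type, Tgfbr2 cKO (the single knockout) and Tgfbr2/Smad4 cKO (the double knockout) below.

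Fibroblasts are the main makers of fibrillar collagen. Types I and III form the bulk fibrils, type V starts and limits their thickness, FACIT chains coat them, type VI forms beaded microfilaments around cells, and type IV forms the network of basement membranes. TGF-beta is known as an inducer of collagen genes in fibroblasts, acting partly through SMAD proteins that bind short DNA elements near its targets.

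Values are log2 signals, so a difference of 1 is 2-fold. A level here is the signal of 1 gene's probe set in 1 array, and levels of different genes are not compared, since their probes differ. Because each group is 1 array, no difference has a replicate check and no p-value is given. The arrays had median signals of 6.63, 6.63 and 6.63. In all triplets of values below, wild type comes first, then the single and then the double knockout. Tgfbr2 read 10.25, 10.25 and 10.29, and Smad4 read 11.06, 11.06 and 11.04. Tgfbr2 was thus equal to wild type or 0.04 above it in the arrays labelled as its knockout, and Smad4 differed by -0.02 in the array labelled as its own. The signals of Tgfbr2 and Smad4 therefore did not show either knockout at the RNA level. Probes outside a deleted part cannot show its loss, and which exons were removed is not given in the labels. Xist, the RNA of the inactive X chromosome, read 5.33, 5.35 and 9.44, and the Y-linked Eif2s3y read 10.12, 10.00 and 5.01, so the double-knockout cells also differed from the others in sex, which cannot be told apart from genotype. Genes were counted if at least 1 array reached the overall median of 6.63, which 11808 genes did. Of the 39 collagen genes 37 did, and Col19a1 and Col8a2 stayed under it in every array, at 6.51 and 6.54 or lower.

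A chosen set of collagen genes is shown first by the sequence just upstream of their transcription start. The choice is not complete by size of difference or by position. Col5a1 is left out, and so are Col4a1 and Col4a2, whose start sites lie close together on opposite strands. The promoter sequences shown are RefSeq's on build GRCm38.p6, each the 250 bases before the start, 5′ to 3′ on the strand of the gene. Capitals mark CAGAC or its complement GTCTG, the core of the SMAD-binding element, and GGGCGG or its complement CCGCCC, the GC box bound by Sp1. The first 4 sequences belong to the genes of type VI collagen, which were higher together in the Tgfbr2/Smad4 cKO array, and to Col28a1, a chain related to them.
Col6a1, chr10:76726045-76726294, minus strand: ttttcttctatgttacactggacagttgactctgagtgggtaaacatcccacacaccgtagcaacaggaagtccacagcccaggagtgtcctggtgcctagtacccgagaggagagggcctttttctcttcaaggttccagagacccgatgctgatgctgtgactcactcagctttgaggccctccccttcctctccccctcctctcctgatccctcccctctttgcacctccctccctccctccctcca
Col6a2, chr10:76623631-76623880, minus strand: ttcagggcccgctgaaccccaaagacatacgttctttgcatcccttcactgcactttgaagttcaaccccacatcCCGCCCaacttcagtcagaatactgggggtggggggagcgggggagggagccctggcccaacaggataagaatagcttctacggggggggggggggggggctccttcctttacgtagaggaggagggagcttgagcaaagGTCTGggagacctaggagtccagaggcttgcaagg
Col6a3, chr1:90843972-90844221, minus strand: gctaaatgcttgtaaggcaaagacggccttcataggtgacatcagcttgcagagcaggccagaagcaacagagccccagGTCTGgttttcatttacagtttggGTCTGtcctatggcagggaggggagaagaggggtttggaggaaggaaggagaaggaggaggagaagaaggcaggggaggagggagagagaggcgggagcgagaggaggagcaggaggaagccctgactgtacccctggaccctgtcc
Col28a1, chr6:8192618-8192867, minus strand: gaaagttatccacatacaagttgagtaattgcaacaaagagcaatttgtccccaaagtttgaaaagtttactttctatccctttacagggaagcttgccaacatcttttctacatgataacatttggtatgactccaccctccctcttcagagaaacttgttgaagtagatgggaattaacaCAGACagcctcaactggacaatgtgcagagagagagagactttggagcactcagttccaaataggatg
The next pair belongs to Col4a5 and Col4a6, which lie head to head on the X chromosome with 1342 bases between their start sites, and whose levels differed in opposite directions.
Col4a5, chrX:141475169-141475418, plus strand: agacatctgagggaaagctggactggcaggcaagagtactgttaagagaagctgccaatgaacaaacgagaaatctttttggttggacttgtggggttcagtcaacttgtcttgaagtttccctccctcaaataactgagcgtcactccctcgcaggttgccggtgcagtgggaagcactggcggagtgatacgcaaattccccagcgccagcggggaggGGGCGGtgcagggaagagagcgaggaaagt
Col4a6, chrX:141474077-141474326, minus strand: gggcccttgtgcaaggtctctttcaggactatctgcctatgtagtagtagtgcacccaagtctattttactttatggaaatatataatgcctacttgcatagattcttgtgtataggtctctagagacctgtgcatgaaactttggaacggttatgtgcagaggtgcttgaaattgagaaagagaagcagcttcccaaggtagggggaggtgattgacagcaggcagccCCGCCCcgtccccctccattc

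Of these 6 upstream sequences, that of Col6a3 held 2 copies of CAGAC on either strand, those of Col6a2 and Col28a1 held 1 copy, and those of Col6a1, Col4a5 and Col4a6 held 0. Col6a2 has 2 start sites in the table, and the sequence shown is that of the one further upstream; the window of the other held 0 copies of CAGAC and 3 GC boxes. Promoters were found for 31 of the 39 genes, in 34 windows, and 8 genes had no window, among them Col1a1, Col12a1 and Col14a1. CAGAC stood in 15 of the 34 windows, or 44.1%, against 42.2% of all 32851 windows of the same length. GGCGCC, a GC-rich SMAD element, stood in 4 of the 34, or 11.8%, against 9.59% of all windows. The GC box stood in 19 of the 34, or 55.9%, against 32.7%, and the collagen windows had a median G and C content of 59.4% against 52.4% over all. CCAAT stood in 35.3% against 33.8%, and the TATA box TATAAA in 14.7% against 12.4%, each searched on both strands. The 5 motifs were counted separately and matches may overlap at their ends. A match is a string of letters and not a bound site.

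In the Tgfbr2/Smad4 cKO array the type VI chains and Col28a1 were higher than in wild type, and Col14a1, Col11a1, Col4a6 and Col10a1 were lower. Col6a3 was under 2-fold, at 0.83, beside Col4a5 at 0.83, Col5a1 at 0.82 and Col12a1 at 0.73. Most other collagen genes were higher by less than 2-fold or equal. Of the 37 collagen genes at the level filter, 3 passed 2-fold upward (Col6a1, Col28a1 and Col6a2) and 1 passed it downward (Col14a1). Over all tested genes 3.4% differed at least 2-fold, 1.22% being higher and 2.18% lower. At 1.5-fold the collagen genes had 7 higher and 2 lower, where 8.44% of all genes differed, 3.35% upward and 5.09% downward. In all, 23 of the 37 were above 0, 4 were below and 10 were exactly equal, with a median difference of 0.10 against 0 over all genes. Of all 11808 tested genes, 3671 were above 0, 3801 below and 4336 equal. With no level filter the median over all 39 was 0.09.

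**Figure D1:**
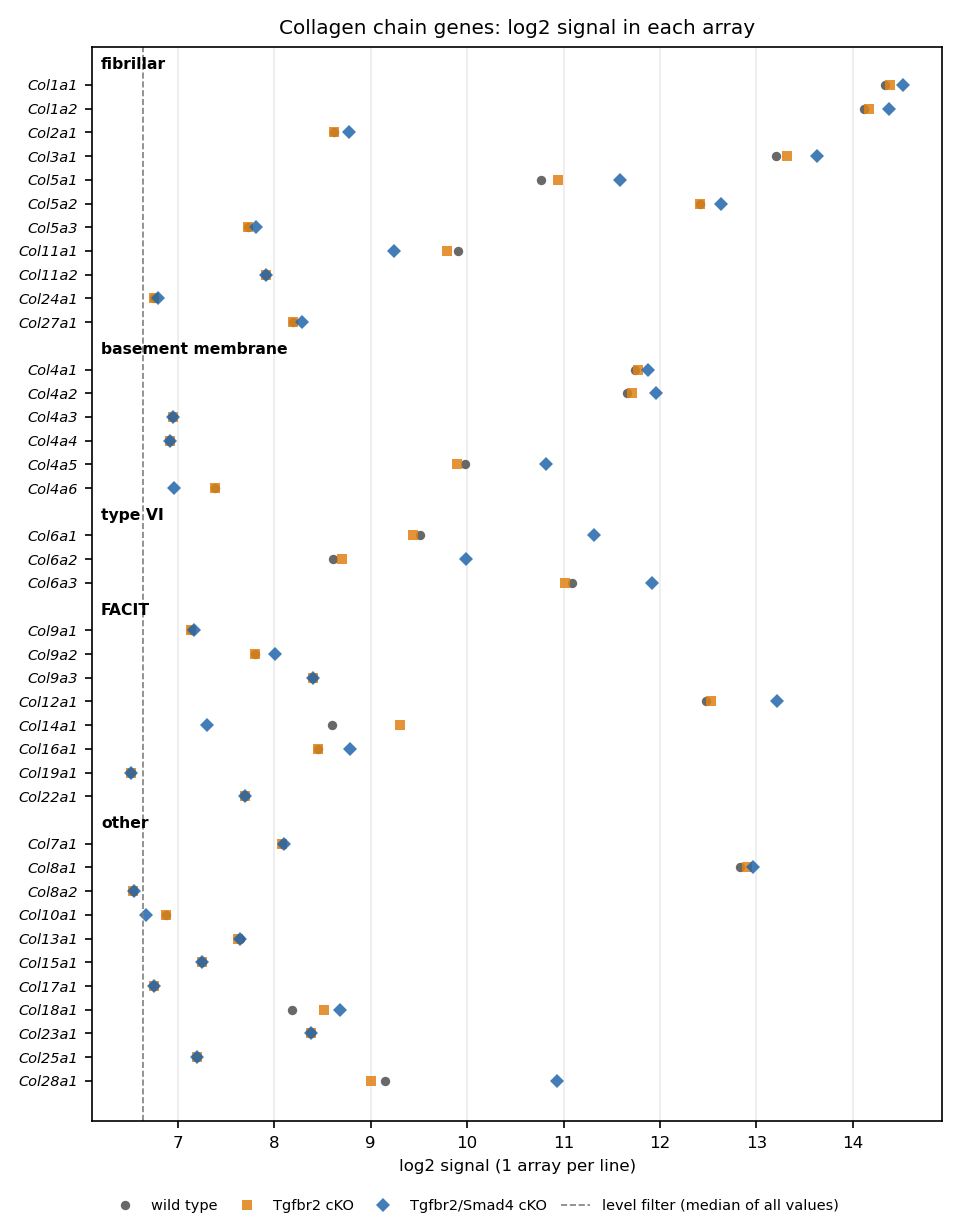
Log2 signal of the 39 collagen chain genes, grouped by class, in the wild-type (grey circles), Tgfbr2 cKO (orange squares) and Tgfbr2/Smad4 cKO (blue diamonds) arrays, with the level filter of 6.63 as a dashed line. In Col6a1, Col6a2 and Col28a1 the blue diamond lies well to the right of the other 2 marks, and in Col14a1 to the left. It lies less far to the right in Col6a3, Col4a5, Col5a1 and Col12a1. Genes are not to be compared with each other along the axis.

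In type VI collagen all 3 chains were higher in the Tgfbr2/Smad4 cKO array, with a class median of 1.38. Its 3 chains are needed together for 1 triple helix, which assembles inside the cell before secretion. Col6a1 had levels of 9.51 in wild type, 9.43 in Tgfbr2 cKO and 11.32 in Tgfbr2/Smad4 cKO. That is a difference from wild type of 1.81, or 3.51-fold, which ranked 36 of 11808 genes from the highest. Col6a2 read 8.60, 8.70 and 9.99, a difference of 1.38, or 2.60-fold, ranking 74. Col6a3, the long chain whose end is cleaved off as endotrophin, had levels of 11.08, 11.02 and 11.91, a difference of 0.83, or 1.78-fold, ranking 210. In each chain the Tgfbr2/Smad4 cKO array was the high one and the other 2 arrays lay less than 0.1 apart. The 3 chains did not differ by the same amount, since the difference of Col6a1 exceeded that of Col6a2 by 0.43 and that of Col6a3 by 0.98. Col6a1 and Col6a2 are adjacent on chromosome 10 with 0 coding genes between them, while Col6a3 is on chromosome 1. Col18a1, which has 2 coding genes between it and Col6a1, had a smaller difference of 0.49.

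Col28a1 encodes a chain with von Willebrand factor A domains that resembles type VI collagen and is best known from peripheral nerve. Its levels were 9.15 in wild type, 9.00 in Tgfbr2 cKO and 10.94 in Tgfbr2/Smad4 cKO. The difference of the double knockout from wild type was 1.79, or 3.45-fold, ranking 37 of 11808 from the highest, next after Col6a1. Against the Tgfbr2 cKO array it was 1.94, or 3.83-fold. The Tgfbr2 cKO array thus lay below wild type, by 0.15, and the double knockout well above both.

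Fibrillar chains were higher in 9 of 11 cases in the Tgfbr2/Smad4 cKO array, lower in 1 and equal in 1, with a median of 0.15 and none at 2-fold. Col1a1 and Col1a2 supply the chains of type I collagen, the main fibril protein of connective tissue. Col1a1 had levels of 14.33, 14.38 and 14.52, and Col1a2 had 14.11, 14.17 and 14.38. The differences from wild type were 0.19 and 0.27, so the chains differed from each other by 0.07. In both, the 3 arrays lay close together with the double knockout highest. Col3a1, the single chain of type III collagen, had levels of 13.21, 13.32 and 13.63, a difference of 0.43 or 1.34-fold.

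Type V collagen, which nucleates the type I fibril, showed unequal chains. Col5a1 had levels of 10.76, 10.94 and 11.58, a difference from wild type of 0.82, or 1.76-fold, ranking 214 from the highest. Col5a2 had 12.42, 12.41 and 12.64, a difference of 0.22. The difference of Col5a1 was thus 0.60 larger than that of Col5a2 and 0.62 larger than that of Col1a1. Col11a1, a chain of type XI collagen that resembles Col5a1 and is best known from cartilage, went the other way. Its levels were 9.90, 9.79 and 9.24, a difference of -0.66, or 1.58-fold lower, ranking 497 from the lowest. Its partner Col11a2 read 7.91 in all 3 arrays, and Col2a1, the cartilage fibril chain, read 8.62, 8.62 and 8.77. Of 7 cartilage markers, 6 were under the level filter in every array, among them Acan and Matn1, and Sox9 read 7.27 in each, so the summed linear signal of that list was 534.5, 537.2 and 534.5 in the 3 arrays.

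Of the 6 basement membrane chains, 3 were higher in the double knockout, 1 lower and 2 equal, with a median of 0.07. Col4a1 and Col4a2, the usual type IV chains of every basement membrane, had small differences in the same direction. Col4a1 read 11.74, 11.77 and 11.88, and Col4a2 read 11.66, 11.71 and 11.96, so the double knockout exceeded wild type by 0.14 and 0.30. Col4a5 and Col4a6, the chains of a type IV network found in smooth muscle and some epithelia, parted. Col4a5 read 9.98, 9.89 and 10.81, a difference of 0.83, or 1.78-fold, ranking 208 from the highest. Col4a6 read 7.38, 7.38 and 6.95, a difference of -0.42, or 1.34-fold lower. The 2 differences thus lay 1.26 apart. Both genes are X-linked and the double-knockout array had the Xist signal of female cells, and the 343 X-linked genes at the level filter had a median difference of 0, with 109 above 0 and 112 below. Col4a3 and Col4a4, another adjacent pair, known from kidney and lung, read 6.94 and 6.92 in every array, just above the filter.

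FACIT chains spread from -1.30 to 0.73 around a median of 0.03 over the 7 at the level filter. Col12a1, which links fibrils to the surrounding matrix and is abundant in tendon and in activated fibroblasts, read 12.48, 12.53 and 13.21, a difference of 0.73, or 1.66-fold. Col14a1, a close relative of Col12a1 that regulates fibril growth, read 8.59 in wild type, 9.30 in Tgfbr2 cKO and 7.30 in Tgfbr2/Smad4 cKO. The knockout arrays thus lay on opposite sides of wild type, with differences of 0.71 and -1.30. As folds, that is 1.64-fold higher in Tgfbr2 cKO and 2.45-fold lower in Tgfbr2/Smad4 cKO. Between the knockout arrays the difference was -2.01, or 4.02-fold lower in the double knockout. The differences of Col12a1 and Col14a1 from wild type in the double knockout lay 2.03 apart. Col16a1 read 8.45, 8.45 and 8.78, a difference of 0.34. Of the remaining FACIT chains, Col9a1, Col9a2 and Col9a3 differed by 0.03, 0.21 and 0, and Col22a1 read 7.70 throughout.

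**Figure D2:**
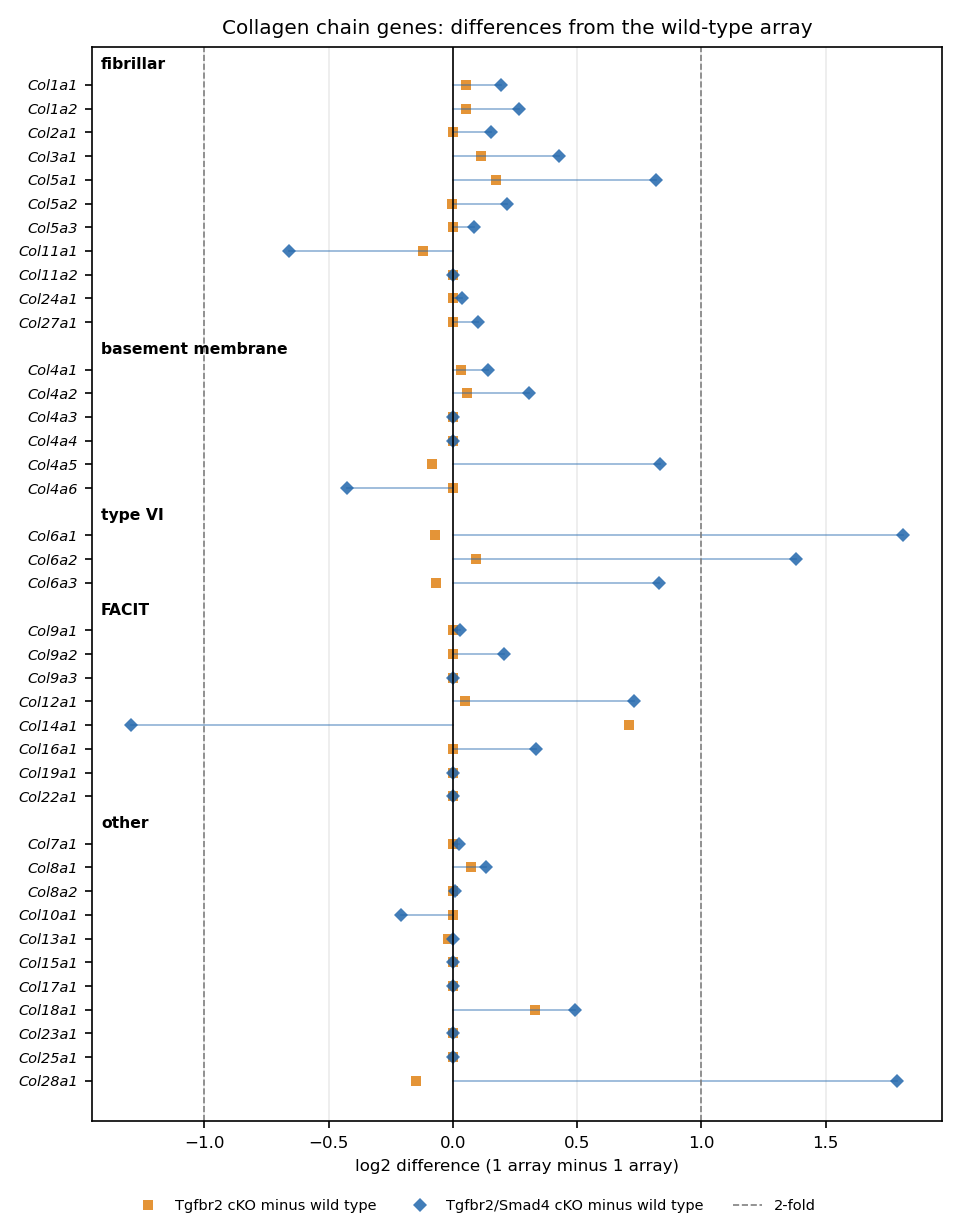
Difference of each of the 39 collagen chain genes from the wild-type array on the log2 scale, for Tgfbr2 cKO (orange squares) and Tgfbr2/Smad4 cKO (blue diamonds), with 2-fold as dashed lines. Blue diamonds pass the 2-fold line to the right for Col6a1, Col28a1 and Col6a2 and to the left for Col14a1, and no orange square passes it.

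Among the other collagens, Col18a1, the source of the angiogenesis inhibitor endostatin, read 8.18, 8.51 and 8.68. It was higher than wild type in both knockout arrays, by 0.33 in Tgfbr2 cKO and 0.49 in Tgfbr2/Smad4 cKO. Col8a1, a network-forming chain of vessel walls, read 12.83, 12.90 and 12.96, a difference of 0.14 in the double knockout. Col10a1, the chain of hypertrophic cartilage, read 6.88, 6.88 and 6.67. Col7a1, the anchoring fibril of skin, differed by 0.03. The transmembrane collagens Col17a1, Col23a1 and Col25a1 and the basement membrane zone collagen Col15a1 read 6.75, 8.38, 7.20 and 7.25 with no difference between arrays, and Col13a1 differed by 0 in the double knockout and by -0.02 in Tgfbr2 cKO.

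Many of these values were not only close but identical. Of the 39 genes, 10 had exactly the same deposited value in all 3 arrays and 21 had the same value in wild type and Tgfbr2 cKO. The 10 had signals between 6.51 and 8.40. Outside the 39, Serpinh1 at 12.57 and Loxl1 at 11.74 were also identical in all 3 arrays, so equal values were not confined to low signals. Exactly equal values were common elsewhere too. Between Tgfbr2 cKO and wild type they made up 55.1% of all tested genes and 51.4% of the 37 collagen genes. The share was 36.7% of all tested genes between Tgfbr2/Smad4 cKO and wild type, against 27.0% of the 37 collagen genes. The labels do not say why values were identical, so an equal value cannot be taken as a measured lack of difference.

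The Tgfbr2 cKO array differed little from wild type in its collagen genes. None of the 37 was at least 2-fold different, where 0.0339% of all tested genes were, 0.0254% upward and 0.00847% downward. At 1.5-fold 1 was higher (Col14a1), where 0.373% of all genes differed, 0.212% upward and 0.161% downward. In count, 11 were above 0, 7 below and 19 equal, with a median of 0. Of all 11808 tested genes, 3052 were above 0, 2245 below and 6511 equal. After Col14a1 at 0.71, which ranked 15 of 11808 genes from the highest, came Col18a1 at 0.33, Col5a1 at 0.18 and Col3a1 at 0.11. On the lower side, Col28a1 stood at -0.15, Col11a1 at -0.12, Col4a5 at -0.09 and Col6a1 at -0.07. The central 95% of all tested genes lay between -0.19 and 0.20 in this comparison, so Col14a1 and Col18a1 lay outside it and the rest within. This array also differed from wild type in tissue of origin, carcinoma against normal forestomach, which cannot be told apart from genotype.

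Set against Tgfbr2 cKO, the double knockout had 3 collagen genes past 2-fold upward and 1 downward, where 3.57% of all genes differed, 1.32% upward and 2.25% downward. At 1.5-fold it had 7 upward and 1 downward, where 9.01% of all genes differed, 3.4% upward and 5.61% downward. The 4 past 2-fold were Col28a1 at 1.94, Col6a1 at 1.88, Col6a2 at 1.29 and Col14a1 at -2.01. This comparison shares the double-knockout array with the one against wild type, so it is not a second measurement of it. Over the 37 genes, 24 were above 0 and 4 below, with a median of 0.09. Of all 11808 tested genes, 3564 were above 0 and 3984 below. Col4a5 at 0.92, Col6a3 at 0.89 and Col5a1 at 0.64 were larger than 1.5-fold but under 2-fold, and so was Col12a1 at 0.68. Tissue of origin and the Xist signal differed between these arrays as well.

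**Figure D3:**
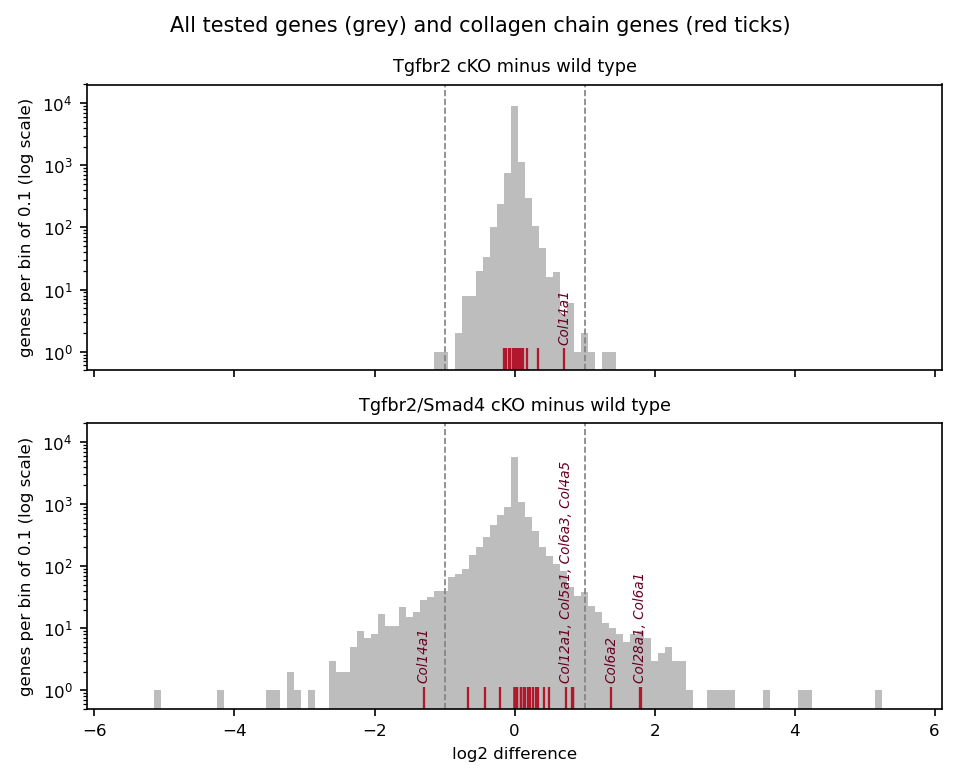
Histograms of the log2 differences of all 11808 tested genes from wild type (grey, count on a log axis), for Tgfbr2 cKO above and Tgfbr2/Smad4 cKO below, with the 37 collagen genes as red ticks and 2-fold as dashed lines. The upper distribution is narrow, with Col14a1 on its right flank. In the lower, Col6a1 and Col28a1 rank 36 and 37 from the right.

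Genes that build and process collagen were evenly divided. Of 29 at the level filter, 11 had more signal in the Tgfbr2/Smad4 cKO array than in wild type, 11 had less and 7 were equal, around a median of 0, and 1 passed 2-fold each way, beside 1.22% upward and 2.18% downward over all genes. The lists below are read against the same shares. Pcolce, which speeds the cleavage of the procollagen C-propeptide, read 12.32, 12.11 and 13.44, a difference of 1.12. Tll1, a protease of the BMP1 family that makes that cleavage, read 10.73, 10.42 and 9.47, a difference of -1.25. Pcolce2, the relative of Pcolce, had -0.92, and between the knockout arrays it reached -1.20. The prolyl hydroxylase gene P4ha2 had -0.74 and between the knockout arrays -1.11. The collagen chaperone gene Serpinh1 (HSP47) read 12.57 in all 3 arrays.

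Receptors for collagen were higher in 6 of 11 genes and lower in 1, with a median of 0.24 and 1 at 2-fold. That gene was Itga11, the alpha subunit of an integrin that binds fibrillar collagen on fibroblasts. Its levels of 10.54, 10.18 and 12.08 gave a difference of 1.54 from wild type and 1.91 from Tgfbr2 cKO. Mrc2, the endocytic collagen receptor, had 0.74. Among 5 collagenases and gelatinases at the filter, the fibroblast surface protease gene Fap, with levels of 6.39, 6.80 and 7.48, was the one at 2-fold, at 1.09, and the median was -0.02. Fap was under the filter in wild type and was counted only through the knockout arrays, where it was higher. Among genes of proteins that bind collagen fibrils, 11 of 13 were above wild type and 1 was below, around a median of 0.43, and over all 15 with a value the median was 0.16. Past 2-fold were 5, where 1.22% of all genes were higher by that much. One of them, dermatopontin (Dpt), had signals of 5.21, 5.85 and 9.45 and reached the level filter in the double knockout alone, so it had to differ to be counted. The small leucine-rich proteoglycans osteoglycin, lumican and fibromodulin are known to bind fibrils and tune their width. Ogn read 10.24, 10.09 and 11.85, a difference of 1.60. Lum read 10.14, 10.21 and 11.35, a difference of 1.21, and Fmod read 8.92, 8.68 and 9.97, a difference of 1.06. Matn2, a matrix adaptor protein, read 9.36, 9.55 and 10.48, a difference of 1.12. In these 4 genes the double-knockout array was the high one. Of the 4 lists, 0 genes passed 2-fold between Tgfbr2 cKO and wild type, where 0.0339% of all genes did, so a count of 0 is near the background.

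**Figure D4:**
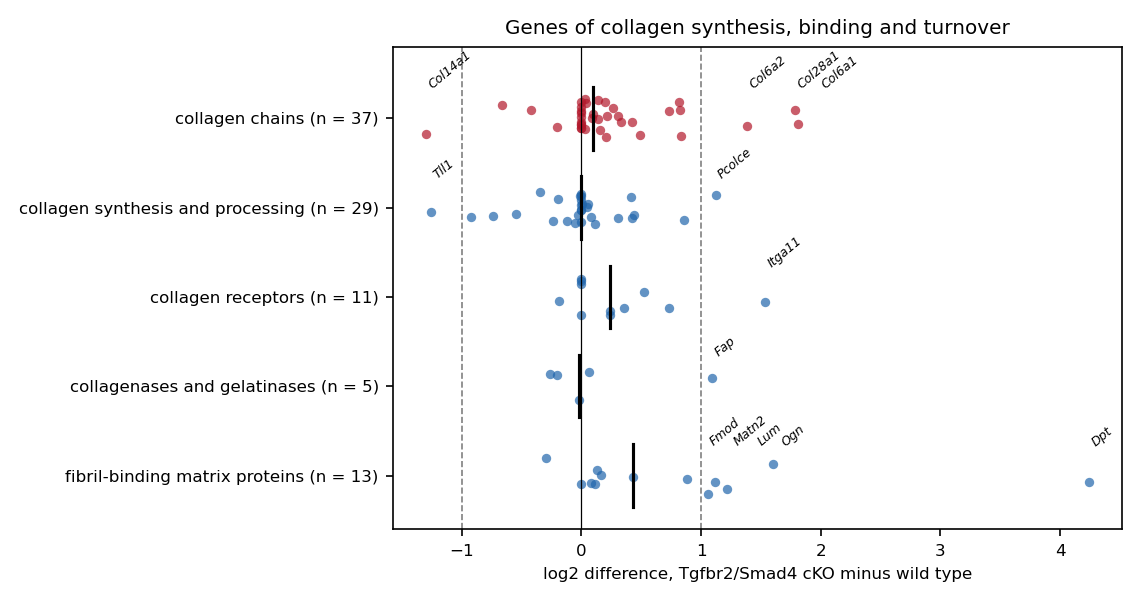
Log2 difference of Tgfbr2/Smad4 cKO from wild type for the 37 collagen chain genes (red) and 4 lists of genes for collagen synthesis, reception, breakdown and fibril binding (blue), 1 point a gene, with the list median as a black bar, 2-fold as dashed lines and names for genes past them. Medians are 0.10 for the chains and 0, 0.24, -0.02 and 0.43 for the other lists in order.

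Markers of the cells in the cultures bear on what a difference in collagen signal means, since fewer cells of a type and less RNA per cell cannot be told apart in RNA from a whole culture. All 9 fibroblast markers were at the level filter, with a summed linear signal of 69763 in wild type, 70674 in Tgfbr2 cKO and 72626 in Tgfbr2/Smad4 cKO. Such a sum is set mostly by its brightest probe sets, here Fn1, Vim and Dcn at 14.24, 14.22 and 13.79 in wild type. It does not measure the share of a cell type, and in lists mostly under the filter it is largely low signal. Within the fibroblast list Pdgfra read 9.73, 10.14 and 11.13, Thy1 read 10.52, 10.35 and 8.16, and S100a4, the gene of FSP1, read 13.18, 13.16 and 12.71. The 6 smooth muscle markers were all lower in the double knockout, 4 of them at least 2-fold, where 2.18% of all genes were, with summed signals of 56865, 59358 and 28668. The 4 were Myh11 at -3.37, Actg2 at -2.85, Des at -2.06 and Cnn1 at -1.62, each against wild type. Of 10 epithelial markers, Epcam, Cdh1, Krt5, Krt14 and Trp63 were under the filter in every array, and the list summed to 1323, 1416 and 878, with Krt19 at -1.89. Mesothelial markers summed to 1796, 1087 and 680, with Upk1b at 9.70, 8.87 and 6.21 and Upk3b at 8.79, 7.72 and 7.65. Endothelial markers summed to 467.5 in each array, with Pecam1 and Cdh5 under the filter, and leukocyte markers to 854, 1224 and 632. Of 7 leukocyte markers with a value, Ptprc, Adgre1, Itgam and Cd3e were under the filter in every array, Lyz2 read 8.70, 9.52 and 7.75 and Cd68 read 7.01, 7.51 and 6.76. Csf1r read 6.81 in all 3 arrays. In Lyz2 and Cd68, as in Col14a1, the single knockout was the highest array and the double knockout the lowest. Krt19, Myh11, Actg2, Cnn1 and Acta2 had that order too, while Des and Smtn were highest in wild type. The single knockout exceeded wild type by 0.82 in Lyz2, 0.50 in Cd68, 0.71 in Col14a1 and 0.42 in Krt19. In Myh11, Actg2, Cnn1 and Acta2 it did so by only 0.03, 0.08, 0.12 and 0.05. Those 4 values lay within the central 95% of all tested genes, -0.19 to 0.20, so their order says little. Mki67, a marker of dividing cells, read 9.65, 9.34 and 7.70. The part of these shifts in the collagen differences was not tested.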

How the data were processed

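The authors' deposited table held 1 value for each of 35556 probe sets in 3 arrays, read as log2 signals from their range of 2.82 to 15.6, and it had 0 other columns of samples. The software that made it, any normalization and the build are not stated in the labels or file header. The deposited log2 values were used as given, since the 3 medians differed by 0.00412. Probe sets were named through the platform's annotation, which listed 23410, of which 21789 had 1 symbol and 1621 several, and 12146 were unnamed here. Symbols of 21698 probe sets were updated through the gene identifier with RefSeq's GRCm38.p6 gene table, and 91 were kept as given. Probe sets of a gene were averaged. Differences are 1 array minus another, described against a 2-fold rule. Genes are named with their values in all arrays where they reached the level filter and differed by at least 0.3 in some comparison, or belonged to types I, III, V and VI or were Col4a1 or Col4a2 (Col5a3 excepted), in the pathway lists where they differed at least 2-fold, and in the marker lists for the defining genes. Others, such as Mrc2, Serpinh1 and marker genes past 2-fold, were named after their values were seen. The members and lists were chosen with earlier results of these data known. Of the 155 listed symbols 151 had a value. Alternatives changed the level filter, normalization, probe set choice, offset and size rule. Counting was tested on simulated data. Python 3.11.15, numpy 2.4.6, pandas 2.3.3 and matplotlib 3.10.9 were used.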

Additional observations from a re-analysis of the deposited data

How the results depend on the processing

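No paired analysis was possible because each group is 1 array. The alternatives were a level filter left out or moved to the 75th percentile, quantile normalization, median centring, the brightest probe set, genes with 1 probe set, an offset of 32 on linear signals, and 1.5-fold or 3-fold in place of 2-fold. At 1.5-fold the collagen genes past the rule numbered 1 for Tgfbr2 cKO minus wild type, 9 for Tgfbr2/Smad4 cKO minus wild type and 8 for Tgfbr2/Smad4 cKO minus Tgfbr2 cKO, in place of 0, 4 and 4, and at 3-fold 2 were left for Tgfbr2/Smad4 cKO minus wild type, as the rules' construction implies. With the filter at the 75th percentile, which leaves 16 collagen genes, the median was 0.37 for Tgfbr2/Smad4 cKO minus wild type and 0.28 for Tgfbr2/Smad4 cKO minus Tgfbr2 cKO, in place of 0.10 and 0.09. The other 42 counts and medians stayed within 1.5 times or 0.1 of the reported value. All 369 differences of single named genes under these alternatives, other than the size rules, stayed on their side of 2-fold with no called value changing sign. Many of these could not move. Each collagen gene had 1 probe set, so the probe set alternatives returned the same collagen differences, counts and medians. A level filter does not alter the difference of a single gene. Only quantile normalization, median centring and the offset could shift one. For Tgfbr2/Smad4 cKO minus wild type, Col6a1 ranged from 1.77 to 1.85, Col28a1 from 1.73 to 1.82, Col6a2 from 1.31 to 1.40 and Col14a1 from -1.30 to -1.14. With 1 array a group, no setting stands in for a replicate.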

Other observations

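Other genes whose proteins hold collagen-like stretches, picked after values were seen, were divided in direction. Of 37 such genes with a value, 23 reached the level filter. In the Tgfbr2/Smad4 cKO array 7 of these were higher than in wild type, 6 lower and 10 equal, with a median of 0. Of all 11808 tested genes, 3671 were higher, 3801 lower and 4336 equal. The scavenger receptor gene Scara3 was the 1 gene at least 2-fold lower, with levels of 8.22 in wild type, 8.21 in Tgfbr2 cKO and 6.81 in Tgfbr2/Smad4 cKO. By that rule 0 were higher, where 2.18% of all tested genes were lower and 1.22% higher, so these counts are near the background. The largest differences on the higher side were those of C1qtnf1 at 0.76, C1qtnf3 at 0.71, the scavenger collectin gene Colec12 at 0.69 and Emilin1, an elastic fibre protein, at 0.66. C1qtnf3 was also 0.73 lower in Tgfbr2 cKO than in wild type, so its knockout arrays lay on opposite sides of wild type. For the double against the single knockout, C1qtnf3 at 1.43 and Scara3 at -1.40 were the 1 gene past 2-fold each way. Over all tested genes 1.32% were higher and 2.25% lower by that much there.

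Collagen genes outside the list of 39 showed no difference of note. Col20a1 and Col26a1 read 7.14 and 7.97 in every array. The later type VI chains Col6a4, Col6a5 and Col6a6 read 6.93, 5.98 and 6.70 in wild type. The largest difference among them was -0.02, beside the differences of 0.83 to 1.81 in Col6a1, Col6a2 and Col6a3. Col6a5 was under the level filter of 6.63 and Col6a4 and Col6a6 were just above it, so signals this low say little about a difference.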
